A study of Homo sapiens with 47 samples.

Results

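The genes described here are 134 protein-coding genes of human embryonic stem cells (hESCs) that fell in the first passages of a WNT/FGF culture and were back, at least in part, some passages later. They were chosen from their levels. Protein-coding genes with a mean of at least 5 TPM (transcripts scaled to a fixed library total) at the start of the culture, 10711 of the 58051 genes listed, were ranked by a score, which is the lower of the log2(TPM + 1) values of the start and of passages 5 to 7, minus that of passages 1 and 2. The first 150 genes were taken, and 16 of these were left out because their symbols belong to large families such as SOX, ZIC or SLC. The levels at the start and at passages 1, 2, 5, 6 and 7 therefore chose the members, and they are given as a description only. The last members to enter were TMEM268, B3GAT1 and BACE2 with scores of 0.975, 0.970 and 0.970, and the first genes outside were TMEM51, CD83 and GLCE with 0.969, 0.969 and 0.966, so the limit falls in a continuum.

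WA09 (H9) cells, an established hESC line, were grown in mTeSR1 and collected before treatment (t0). They were then kept for 36 h in N2B27 without vitamin A, with CHIR-99021 (an inhibitor of GSK3 that activates WNT signaling), rhFGF2, AGN193109 (an inverse agonist of the retinoic acid receptors) and Y-27632 (a ROCK inhibitor), which yields cells resembling neuromesodermal progenitors (NMPs). The same additions were present after re-plating, and cultures were collected at each passage from P1 to P10. At P5 and P8, selective detachment with TrypLE also gave fractions enriched for epithelial cells (EPI, pre-neural progenitors) or for mesenchymal cells (MES, neural crest). RNA was sequenced in 3 differentiations, r1 to r3, giving 35 libraries of whole cultures and 12 of fractions, with 2 libraries at P9, where r3 was not analysed here. All libraries share 1 cell line, and the fractions are enrichments with no purity attached to their labels.

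NMPs are bipotent cells of the posterior embryo that give rise to the spinal cord and to the mesoderm of the somites. Both hESCs and the neural tube are epithelia with an apical side, and some genes are active in both. Neural crest cells arise at the border of the neural plate, lose epithelial contacts and migrate, and they use several transcription factors that are also active in pluripotent cells, FOXD3 among them.

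Library totals of expected counts lay between 13029491 and 64082859 (median 47292229). Marker lists followed the labels in broad terms (the plot of summed marker levels). The summed TPM of 13 pluripotency markers had a median of 5236 at t0 and read 3250, 902.0 and 807.1 at P1 in r1, r2 and r3, and that of 11 axial progenitor markers went from 29.4 at t0 to 2038 at 36 h. A list of 10 epithelial genes (EPCAM, CDH1, ESRP1 and others) summed to between 701.9 and 854.5 at t0 and to between 8.0 and 17.2 at P8 to P10, so the sum of these 10 genes did not come back with the members. CDH3, a cadherin gene that is not on this list and was left out of the members by its symbol, had means of 85.4 TPM at t0, 1.56 at P2 and 117.2 at P7. Paraxial mesoderm markers were high at P1, when the members were low, but unevenly so, with sums of 47.8, 1030 and 1515 TPM in r1, r2 and r3. In r1 they were highest later, with 858.9 TPM at P2 and 1287 at P3, when r2 and r3 were at 98.9 and 133.4, and P3 r1 enters each comparison with P3. P10 r1 stood apart from the other late libraries: its 9 neural progenitor markers summed to 403.4 TPM, against 59.9 to 96.2 in the other 4 libraries of P9 and P10, and its 17 neural crest and mesenchyme markers to 1917, against 5541 to 7812. Most of the neural progenitor sum came from SOX2 and NES, with means of 71.8 and 122.3 TPM at P10. Both genes were also high at t0, with means of 182.6 and 86.5 TPM. The largest part of the neural crest and mesenchyme sum at P10 was VIM (mean 2331 TPM). The part of these cell types in the members' levels was not tested, and in bulk RNA fewer cells of a type and less RNA per cell cannot be told apart.

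**Figure D1:**
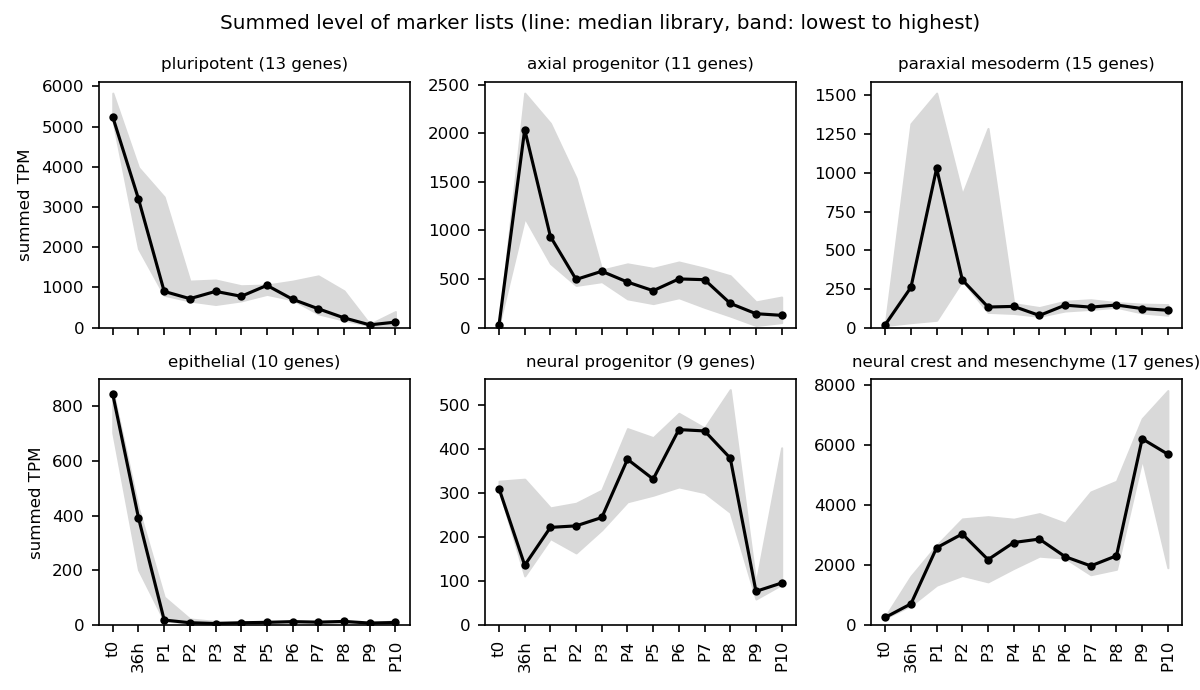
Summed TPM of 6 marker lists (y axis) by whole-culture time point (x axis). The line joins the median library of each time point and the band runs from the lowest to the highest library. The epithelial sum fell by P1 and stayed low to P10, whereas the neural progenitor sum was lowest at P9.

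Promoters of 102 of the 134 members were found in RefSeq (GRCh38.p14), 4 of them listed there under another symbol, and the 250 bases before the first start listed for each gene were searched on both strands. The octamer ATTTGCAT, which POU factors can bind, was in 3 member promoters (2.94%, against 1.26% of 8842 promoters of all ranked genes). The SOX-type letters ACAATGG were also in 3 (2.94% against 1.29%). The E-box CACCTG was in 19 (18.6% against 15.3%), AACCNGTT, a GRHL-type motif, in 3 (2.94% against 1.09%), and the sterol element TCACNCCAC in 1 (0.98% against 0.939%). Member promoters had a median G+C share of 68.6%, compared with 65.6% for the ranked genes, and an observed to expected CpG ratio of 0.790 compared with 0.837. A match is a description of letters and not evidence of binding. The 5 promoters with octamer or SOX letters are printed, together with that of HOOK1, a cytoskeletal linker gene whose promoter holds an E-box and whose RNA was higher in the P5 epithelial fraction. All are written 5′ to 3′ on the strand of the gene, with the matched letters in capitals.
HDAC9, chr7:18495499-18495748, plus strand, first of 5 starts listed: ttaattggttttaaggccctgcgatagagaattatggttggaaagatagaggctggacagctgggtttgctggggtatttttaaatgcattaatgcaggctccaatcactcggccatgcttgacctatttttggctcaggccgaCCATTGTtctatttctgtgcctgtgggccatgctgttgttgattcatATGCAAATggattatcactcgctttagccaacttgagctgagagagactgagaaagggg
LGR4, chr11:27472791-27473040, minus strand: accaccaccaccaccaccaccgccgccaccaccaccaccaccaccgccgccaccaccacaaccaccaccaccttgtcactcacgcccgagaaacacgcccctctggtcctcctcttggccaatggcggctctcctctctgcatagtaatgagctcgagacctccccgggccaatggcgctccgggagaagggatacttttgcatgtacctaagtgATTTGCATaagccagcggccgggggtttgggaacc
KCTD12, chr13:76886406-76886655, minus strand: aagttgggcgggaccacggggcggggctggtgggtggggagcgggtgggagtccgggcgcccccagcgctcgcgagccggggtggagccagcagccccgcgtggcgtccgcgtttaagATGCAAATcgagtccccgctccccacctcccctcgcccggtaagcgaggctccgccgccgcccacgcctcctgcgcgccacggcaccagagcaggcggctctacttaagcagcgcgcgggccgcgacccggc
NDRG2, chr14:21026311-21026560, minus strand, first of 5 starts listed: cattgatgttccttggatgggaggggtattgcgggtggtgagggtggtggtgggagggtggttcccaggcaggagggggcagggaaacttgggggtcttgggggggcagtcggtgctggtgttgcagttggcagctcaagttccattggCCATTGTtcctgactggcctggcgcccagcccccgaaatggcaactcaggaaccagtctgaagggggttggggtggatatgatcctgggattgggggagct
RNF175, chr4:153760025-153760274, minus strand: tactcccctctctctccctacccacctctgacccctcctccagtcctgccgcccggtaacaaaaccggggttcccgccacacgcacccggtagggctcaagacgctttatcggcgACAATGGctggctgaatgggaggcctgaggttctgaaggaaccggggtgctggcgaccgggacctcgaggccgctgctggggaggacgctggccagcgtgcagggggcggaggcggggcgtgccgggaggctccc
HOOK1, chr1:59814699-59814948, plus strand: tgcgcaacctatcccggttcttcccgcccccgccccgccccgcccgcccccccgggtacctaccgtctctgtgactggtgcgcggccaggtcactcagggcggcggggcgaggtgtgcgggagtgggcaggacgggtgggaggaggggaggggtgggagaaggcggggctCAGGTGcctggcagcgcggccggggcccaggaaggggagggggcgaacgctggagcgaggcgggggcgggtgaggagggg
The starts used for HDAC9 and NDRG2 lie far inside the genes' GENCODE spans, so these stretches belong to internal starts, and those of RNF175 and HOOK1 lie a short way inside. HDAC9 held both kinds, the octamer starting 59 bases and the SOX letters 106 bases before the start, both as their reverse complements. The octamer of LGR4 began 35 bases and that of KCTD12 132 bases before the start.

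As a group, the members had a median of 15.2 TPM at t0, 3.44 TPM over P1 and P2 and 13.2 TPM over P5 to P7. Relative to t0, the median member stood at 51.0% at 36 h, 23.9% at P1, 22.6% at P2 and 37.3% at P3, then at 60.2% at P4 and 72.0% at P5, and it was at 90.1% by P6. Over P5 to P7, 54 members were above their t0 level and 80 were at or below it. This course was uncommon among the ranked genes: 1309 of them were below 50% of t0 over P1 and P2, of which 118 were at 75% or more over P5 to P7, 80 of these being members, while 1030 were still below 50%. These values belong to the rule and support nothing further.

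**Figure D2:**
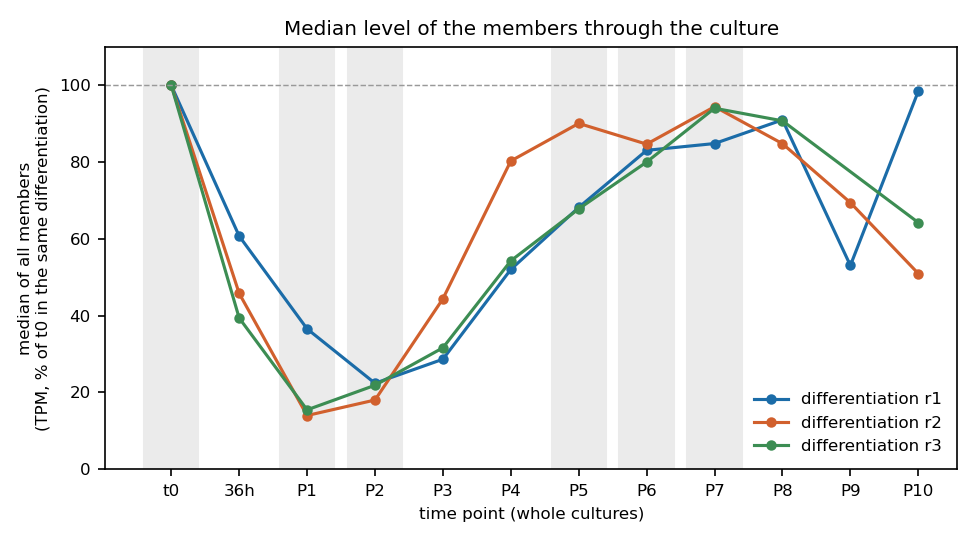
Median over the 134 members of the TPM of a library as a percentage of the same differentiation at t0 (y axis), by time point (x axis) and differentiation (color). Gray columns mark the time points that chose the members. The low point was reached at P1 in r2 and r3 and at P2 in r1.

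The fall was not simultaneous in the 3 differentiations. At P1, r1 was still at 36.6% of its own t0 level, whereas r2 and r3 were at 14.0% and 15.4%. Between 36 h and P4, 83 members had their lowest level at P2 in r1, compared with 43 in r2 and 35 in r3, where P1 was the commonest low point (79 and 77 members). The score was above 1 in all 3 differentiations for 44 members and above 0 in all 3 for 127. P1 r1 also held the lowest paraxial mesoderm sum of the P1 libraries, given above, the highest epithelial sum (103.0 TPM against 19.3 and 16.6) and the highest pluripotency sum. The part of these in the later fall of r1 was not tested.

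The steepest dips were those of genes with quite different roles (the plot of 8 members by library). GPR160, an orphan G protein-coupled receptor gene (chr3:170037929-170085403, GRCh38, GENCODE 29, as for all gene positions), had the highest score of the members, 3.30. It read 35.9, 42.6 and 40.5 TPM at t0 in r1, r2 and r3, 0.13, 0.09 and 0.27 at P2, and 10.6, 29.1 and 10.1 at P7, so its return remained below t0 in every differentiation. SORBS2 (chr4:185585444-185956652), which encodes an adaptor of the actin cytoskeleton, read 108.1, 94.2 and 126.8 TPM at t0 and 132.6, 197.2 and 114.4 at P7. It was already at 4.57, 0.62 and 1.01 TPM at 36 h, before the members' common low point. FOXD3 (chr1:63323041-63325126), a forkhead factor of pluripotent and neural crest cells, fell from 12.1, 10.6 and 13.1 TPM at t0 to 0.16, 0.02 and 0.04 at P1. Its return over P5 to P7 rested largely on a single library, since P7 read 1.93, 5.39 and 61.3 TPM.

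HDAC9 (chr7:18086949-19002416), a class IIa histone deacetylase gene, went from 16.0, 14.1 and 13.8 TPM at t0 to 0.61, 0.71 and 1.06 at P2 and to 5.54, 25.4 and 37.0 at P5. At P5 r1 was below its t0 level and r2 and r3 were above theirs, but at P7 r2 was at 3.94 TPM, and at P9 r1 was at 85.4. BNC2 (chr9:16409503-16870843), a zinc finger factor gene, fell from 18.2, 17.7 and 19.7 TPM to 1.62, 1.34 and 1.37 at P1 and read 6.07, 11.2 and 13.3 at P5. Among the others of the 10 highest scores, RARRES2 (chemerin, a secreted protein first described as induced by retinoids) had a mean of 5.69 TPM over P1 and P2 and came back to 15.9% of t0, BRINP1 to 51.4% and PAPSS2, a sulfate donor synthase gene, to 87.7%. CHRDL1, which encodes a secreted BMP antagonist, came back to 93.6% of t0. CRYM, a thyroid hormone-binding protein gene, was above t0 on average (185.3%), but unevenly, with 5.35, 87.1 and 42.3 TPM at P5 and 38.5, 40.6 and 2.33 at P7.

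**Figure D3:**
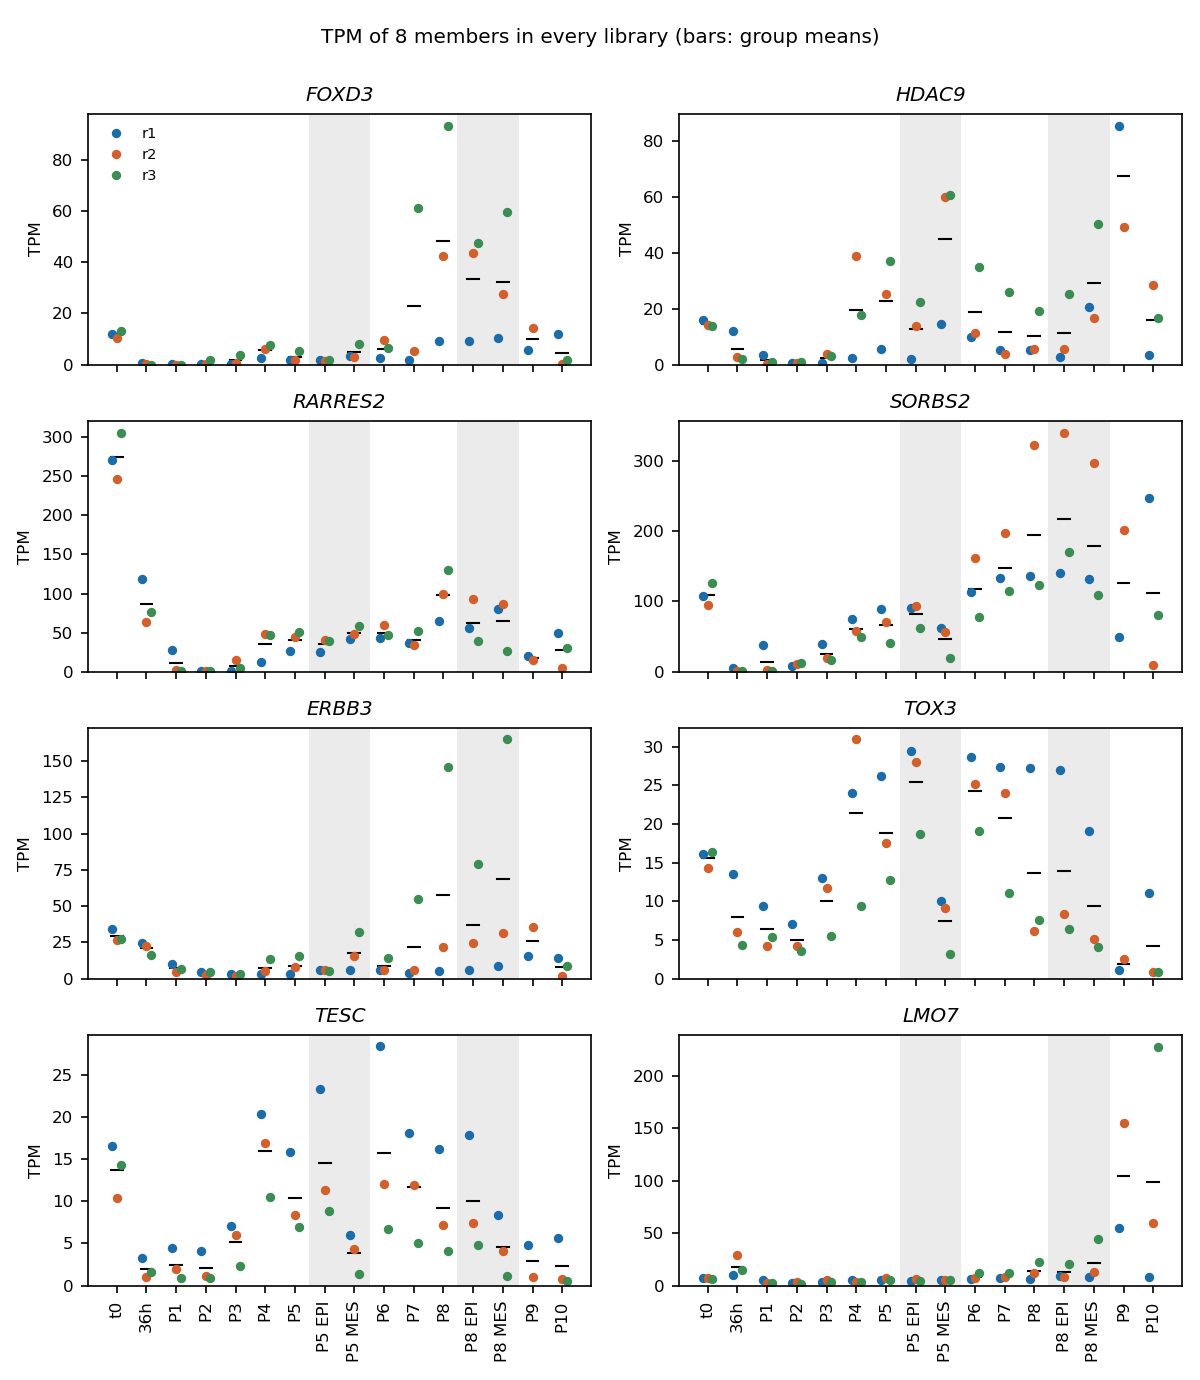
TPM (y axis, linear) of 8 members in every library, with whole cultures and shaded fractions on the x axis, points colored by differentiation and bars at group means. Among whole cultures, FOXD3 and ERBB3 were highest at P8 in r3. TOX3 and TESC were higher in the epithelial than in the mesenchymal fraction of P5, and LMO7 was highest at P9 and P10.

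For a description by function, 86 members were sorted into 6 groups by known role, after their values had been seen. Over P1 and P2 the groups had median levels from 5.5% of t0 (4 genes of retinoid handling or response) to 28.8% (21 enzymes and signaling kinases). Over P5 to P7 the enzymes were at a median of 118.4% of t0, 18 genes of transcription and chromatin at 87.9% and 14 genes of the cytoskeleton and junctions at 87.0%. The 12 secreted and matrix proteins were at 76.85%, 17 receptors, channels and surface proteins at 76.7% and the retinoid genes at 31.05%. In the retinoid group the members differed from each other: CRABP1, a cytoplasmic retinoic acid-binding protein, came back to 10.5% of t0 and RARRES2 to 15.9%, whereas LRAT, the enzyme that esterifies retinol for storage, reached 494.1%. LRAT read 13.4, 17.3 and 22.1 TPM at t0, 8.87, 2.90 and 0.36 at P2, and 88.4, 219.9 and 52.3 at P7. All cultures after t0 lacked vitamin A and contained this inverse agonist. The most abundant member was TMSB4X (thymosin beta 4, which sequesters actin monomers), with 2115, 1839 and 2252 TPM at t0, 683.2, 622.9 and 630.7 at P2 and 3068, 2396 and 2261 at P7.

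On the lists of pathways and cell types, only genes at 5 TPM or more at t0 could be members, and 134 of all 10711 such genes were. ERBB3 was the member among 43 such genes of epithelial identity, PROM1 and CRABP1 were members among 28 neural progenitor genes, MT2A among 6 metallothioneins and FOXD3 among 6 neural crest and mesenchyme markers. No member was among 31 genes of sterol synthesis, 30 of glycolysis and hypoxia, 23 of the integrated stress response or 10 immediate early genes. The symbol rule took SOX2, FGFR2, ZIC2 and ZIC5 from the neural progenitor list. It took FGFR2 and FGFBP3 from the FGF list, which held no member. The list of 14 interferon and antigen presentation genes held none either, but it does not name HLA-DRB1, HLA-DPB1 and ERAP1, antigen presentation genes that are members. MT2A was uneven already at t0 (18.1, 52.2 and 9.08 TPM).

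The libraries of 36 h, P3, P4, P8, P9 and P10 and the fractions had no part in the choice of members, and comparisons among them were tested with edgeR's quasi-likelihood test over all genes, with the differentiation as a block. To be called, a gene needed a Benjamini-Hochberg FDR under 1%, a difference of 2 times or more, and 100 or more normalized counts on average. All 134 members passed edgeR's filter on low counts in the whole cultures and at P8, and 133 did so in the P5 fractions, RBP7 being the exception. Log2 fold changes are differences of normalized counts, whereas levels are TPM.

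The first of these comparisons sets 36 h, before re-plating, against P3, where part of the return had already taken place, so that it holds both fall and return. Between 36 h and P3 the members moved in both directions: 20 were lower at P3 (background 4.05% of all genes tested and 6.37% of the ranked genes) and 6 were higher (background 2.88% and 2.27%). At an FDR under 5%, 32 were lower and 7 higher (background 5.31% and 3.67%), and DESeq2 called 28 and 6 (background 5.05% and 3.44%). Without the block, which the libraries of 36 h and P3 do not bear out (correlation of same-numbered deviations 0.006), 12 were lower and 5 higher, of 770 and 579 genes in all. The median log2 fold change was -0.35 for the members and -0.02 for all genes. CRABP1 read 143.1, 66.6 and 48.9 TPM at 36 h and 5.08, 2.15 and 5.47 at P3, a fall in each differentiation without overlap (log2 fold change -4.64, SE 1.21, edgeR adjusted p = 0.0056). BCL11A, a zinc finger repressor gene, was near its t0 level at 36 h (29.3, 23.0 and 18.7 TPM, against 21.1, 20.9 and 22.2 at t0) but was at 0.57, 3.36 and 1.79 at P3 (-3.99, SE 1.07, edgeR adjusted p = 0.0070). RARRES2 (-3.56), ERBB3, a neuregulin receptor gene (-3.26), and PPIC, a cyclophilin gene (-3.12), completed the 5 strongest falls, with edgeR adjusted p of 0.0050, 0.0063 and 0.0084.

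The 6 members that rose from 36 h to P3 had reached low levels early. SORBS2 was at 4.57, 0.62 and 1.01 TPM at 36 h and at 39.9, 19.99 and 16.7 at P3 (log2 fold change 4.63, SE 1.02, edgeR adjusted p = 0.0015). ADCY5, which encodes an adenylyl cyclase, went from 1.38, 0.93 and 0.80 to 5.26, 8.07 and 4.31 TPM (2.70, SE 0.42, edgeR adjusted p = 4.7e-05). ZMAT4 rose by 2.48, MYLIP, a ubiquitin ligase gene that targets lipoprotein receptors, by 2.03, GNG4, a G protein gamma subunit gene, by 1.56 and CAMK1D, a calmodulin-dependent kinase gene, by 1.3. For each of the 6, every P3 library was above every 36 h library. Without r2, 0 members were higher and 3 lower, and without r3, 1 and 0. Over all genes the calls fell too, from 627 higher and 880 lower to 140 and 217 without r2 and to 240 and 354 without r3.

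From P3 to P4 no member was called in edgeR's test at an FDR under 1%, nor with DESeq2 (background 0.0368% higher and 0.0138% lower), nor was any gene of the table called by edgeR (background 0%). The estimates pointed upward in 126 of 134 members, with a median log2 fold change of 0.73 (all genes: -0.002), and 37 members had every P4 library above every P3 library, compared with 6.11% of all genes tested. P3 and P4 lie between the low and the high time points that chose the members, in the same differentiations, so an upward tilt follows in large part from the rule. The lowest adjusted p of a member was 0.36 with edgeR and 0.012 with DESeq2.

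Between P3 and P8 the difference was larger. In edgeR's test 21 members were higher at P8 (background 1.24% of all genes tested and 1.15% of the ranked genes) and 0 were lower (background 0.377% and 0.504%). DESeq2 called 47 members higher and 0 lower (background 2.49% and 0.91%), and edgeR at an FDR under 5% called 48 and 0 (background 2.62% and 0.956%). The median log2 fold change was 1.34 for the members and 0.01 for all genes, 123 of 134 members had a positive estimate, and in 89 every P8 library exceeded every P3 library (background 14.9%). P3 and P8 lie next to time points that the rule used, in the same 3 differentiations, so a rise follows in large part from the rule. Without r1 the test called 31 members higher, with 577 of 22488 genes higher, compared with 269 of 21750 when r1 was included. Without r2 it called 0 members and, over all genes, 13 higher and 3 lower, and without r3 it called 0 members and 1 gene higher and 3 lower.

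Several of the strongest rises were carried unevenly by the differentiations. MOXD1, a monooxygenase homolog gene, read 0.99, 0.95 and 0.82 TPM at P3 and 3.79, 34.95 and 123.04 at P8 (log2 fold change 5.13, SE 1.08, edgeR adjusted p = 0.0054). NMNAT2, an NAD synthesis enzyme that preserves axons, read 1.37, 0.97 and 1.3 TPM at P3 and 4.95, 72.3 and 20.4 at P8 (5.10, SE 1.15, edgeR adjusted p = 0.0080). In both, all P8 libraries lay above all P3 libraries, and r1 had the smallest rise. MEGF10, an engulfment receptor gene, reached 3.72, 2.45 and 27.9 TPM at P8 (4.64, SE 0.86), and ERBB3 5.11, 21.5 and 146.4 TPM (4.08, SE 0.91), both with r3 highest. The sum of the neural crest and mesenchyme markers was also highest in P8 r3, with 1867, 2315 and 4794 TPM in r1, r2 and r3. VIM was its largest part at P8 (mean 1568 TPM), whereas SOX10 and SNAI1 had means of 5.73 and 5.17. The sum is thus not a readout of neural crest alone. The part of neural crest and mesenchymal cells in the uneven rises was not tested.

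KCTD12, an auxiliary subunit of GABA-B receptors whose promoter holds an octamer, rose in every differentiation, from 6.77, 4.34 and 2.79 TPM at P3 to 56.4, 94.4 and 162.2 at P8 (4.34, SE 0.65, edgeR adjusted p = 3.8e-04). Unlike most members it rose far above its t0 level (6.19, 8.22 and 6.5 TPM). LGR4, an R-spondin receptor gene that amplifies WNT signals, behaved differently, with 9.85, 13.5 and 11.1 TPM at P3 and 35.3, 32.5 and 33.4 at P8, close to the 37.4, 36.3 and 37.0 of t0 (1.58, SE 0.36, edgeR adjusted p = 0.0090). IGFBP2, a secreted binder of insulin-like growth factors, rose from 260.6, 195.3 and 197.6 to 599.1, 687.0 and 838.8 TPM (1.67, SE 0.33, edgeR adjusted p = 0.0028). By role, in groups made with the values known and not tested against each other, an FDR under 5% (background 2.62%) called 8 of 17 receptors, channels and surface proteins, 11 of 21 enzymes, 5 of 12 secreted and matrix proteins, 4 of 14 genes of the cytoskeleton and junctions, 1 of 4 retinoid genes, 13 of 48 without a group and 6 of 18 genes of transcription and chromatin, FOXD3, RUNX1T1 and BCL11A among the latter.

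The fractions were compared to ask how the members differed between epithelial and mesenchymal cells. At P5 no gene at all passed the 1% threshold in edgeR (background 0%), the lowest adjusted p of a member being 0.010. With the same fold and mean limits at an FDR under 5%, 38 members were higher in the epithelial fraction (background 2.41%) and 15 in the mesenchymal fraction (background 2.97%), and DESeq2 at 1% called 40 and 15 (background 2.52% and 2.8%). In 49 members every epithelial library exceeded every mesenchymal one (background 15.8%), and in 21 the reverse held (background 16.3%). The remaining 80 of the 133 members tested were in neither set at 5%, and the share of members with the mesenchymal libraries on top was close to that of all genes.

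**Figure D4:**
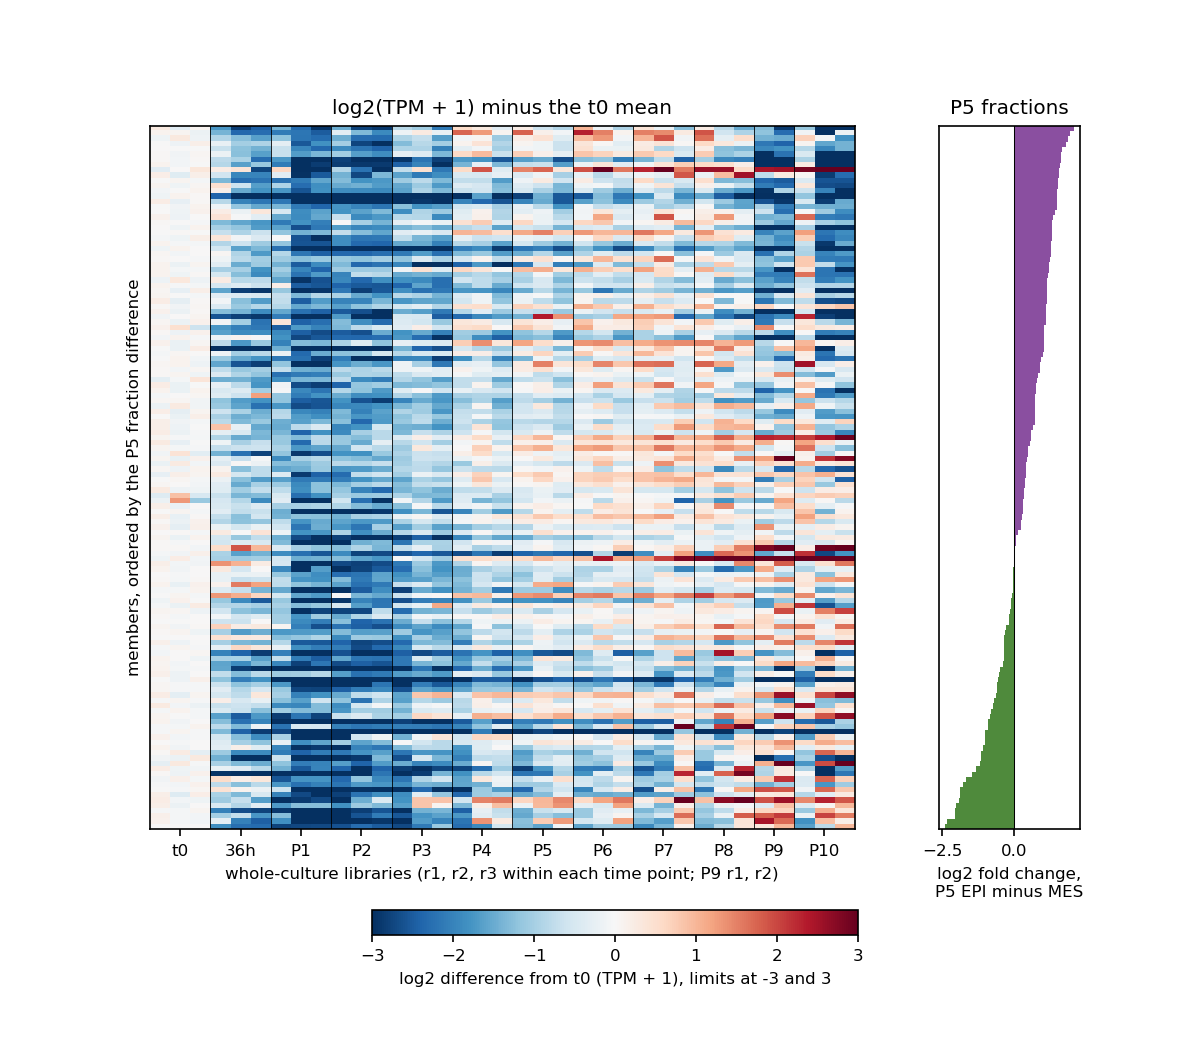
Left, log2(TPM + 1) of the 134 members (lines) in the 35 whole-culture libraries (columns) minus the mean of t0, in color from -3 to 3. Right, log2 fold change between the epithelial and mesenchymal fractions of P5, which sets the order (RBP7 was not tested and is drawn at 0). Each of the 134 members averaged below 50% of t0 over P1 and P2, and many at the upper, epithelial end were low again at P9 and in P10 r2 and r3.

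The epithelial set was led by TESC, a calcium-binding protein gene, with 23.3, 11.3 and 8.90 TPM in the epithelial and 6.05, 4.39 and 1.34 in the mesenchymal libraries (log2 fold change 2.05, SE 0.29, edgeR adjusted p = 0.015). No library of one fraction reached the other. ZMAT4, a zinc finger gene, read 53.7, 17.4 and 12.8 TPM in EPI and 17.2, 4.34 and 2.49 in MES (1.93, SE 0.10, edgeR adjusted p = 0.010), where the ranges meet across differentiations but the difference within each was alike. GALNT18, a mucin-type glycosyltransferase gene (1.87), LEMD1 (1.80) and BTBD11 (1.65) were in the same set. The set also held PROM1, the apical membrane protein prominin of neural stem cells (122.7, 132.1 and 112.2 TPM in EPI, 49.9, 75.8 and 34.3 in MES), the transcription factor gene TOX3, HOOK1, GPR160, the BMP antagonist gene CHRDL1, the neurexin gene NRXN2, the planar polarity cadherin gene CELSR2 and SORBS2. SORT1 and CELSR2, both in this set, lie 33818 bases apart on chromosome 1.

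Of the 15 genes of the mesenchymal set, 9 were in the transcription group, as were 3 of the 38 epithelial genes, a difference that was not tested in groups made with the values known. ADGRG2, an adhesion G protein-coupled receptor gene, read 0.84, 0.82 and 1.36 TPM in EPI and 4.34, 2.93 and 9.86 in MES (log2 fold change -2.38, SE 0.22, edgeR adjusted p = 0.011). HDAC9 read 2.00, 13.9 and 22.3 in EPI and 14.4, 59.8 and 60.6 in MES (-2.33, SE 0.34, edgeR adjusted p = 0.016), higher in MES within every differentiation although r1 of MES lay within the EPI range. RUNX1T1, a corepressor gene (-2.06), BNC2 (-2.04) and WIPI1, an autophagy gene (-2.02), came next. ETS1, an ETS family transcription factor gene, was at 12.9, 32.7 and 39.1 TPM in EPI and 98.3, 92.7 and 93.2 in MES (-1.93, SE 0.33, edgeR adjusted p = 0.022). FOXD3, the glucocorticoid receptor gene NR3C1, BCL11A and the corepressor gene TLE1 were also in this set. The list of 17 neural crest and mesenchyme markers, to which FOXD3 belongs, had a median log2 fold change of -1.61 in the same comparison.

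At P8 the same contrast had smaller estimates for the members. Marker medians, taken over the genes tested, were smaller too. The neural progenitor median was 1.20 at P5 (6 tested) and 0.50 at P8 (8 tested). The axial progenitor median was 1.10 (10 tested) and 0.23 (9 tested). The neural and axial medians thus do not cover the same genes at both passages. The median of 17 neural crest and mesenchyme markers was -1.61 at P5 and -1.41 at P8. No member was called by edgeR (background 0%), and DESeq2 called 0 higher in EPI and 4 in MES (background 0.0942% and 1.05%). Of the 38 members of the P5 epithelial set, 37 had a positive estimate at P8, with a median log2 fold change of 0.56 after 1.32 at P5, and of the 15 of the mesenchymal set 14 had a negative one, with a median of -0.87 after -1.88. All genes of each direction behaved alike: 394 of 425 epithelial genes were positive at P8 (median 0.52 after 1.32) and 516 of 525 mesenchymal genes negative (-0.92 after -1.55). FOXD3 was the exception in the mesenchymal set of the members (9.12, 43.7 and 47.5 TPM in EPI, 10.3, 27.5 and 59.7 in MES). The difference between the passages was itself tested as an interaction of passage and fraction: no member was called by edgeR (background 0%) or DESeq2 (background 0% higher and 0.0053% lower).

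**Figure D5:**
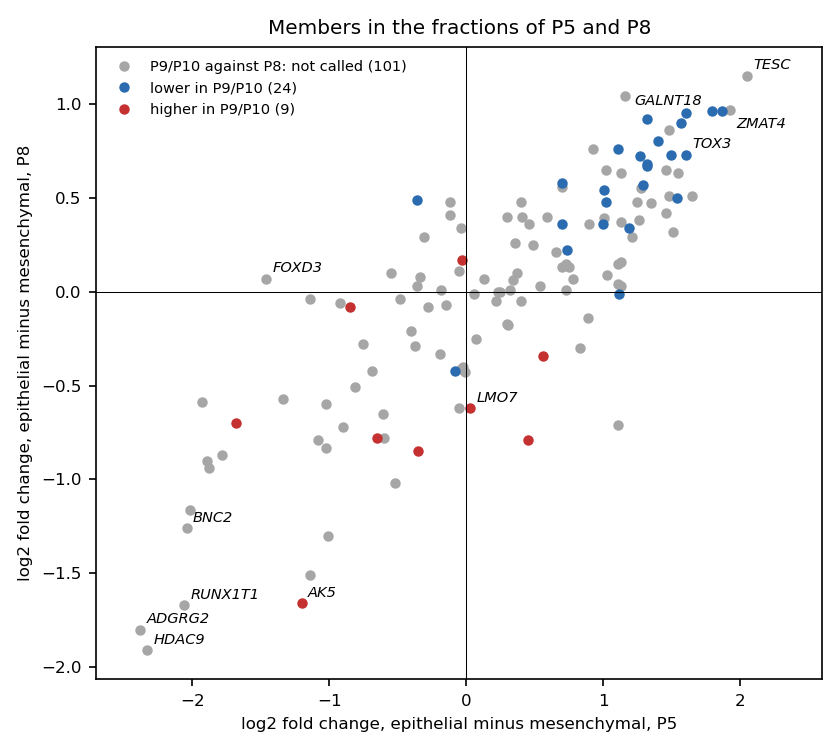
Log2 fold change between epithelial and mesenchymal fractions at P5 (x axis) and P8 (y axis) for 133 members, 1 point each, colored by the call of P9 and P10 against P8 in whole cultures at an FDR under 5%. Of the 24 members that were lower at P9 and P10, most lie on the epithelial side of P5.

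Late passages of the whole cultures were then compared with P8. Against P8, the mean of P9 and P10 was lower for 9 members in edgeR (background 0.474% of all genes tested and 0.71% of the ranked genes) and higher for 3 (background 0.772% and 0.906%), with medians of -0.50 over the members and -0.01 over all genes. At an FDR under 5% it was lower for 24 (background 1.41%) and higher for 9 (background 2.21%), and DESeq2 called 22 and 9 (background 1.22% and 2.18%). Of the 38 members of the P5 epithelial set, 18 were among those lower and 0 among those higher, a share of 47.37%, compared with 30.59% of all 425 genes of that direction at P5. Of the 15 of the mesenchymal set, 0 were lower and 1 was higher (6.67%), compared with 22.1% higher among all 525 genes of that direction. Neither difference in share was tested. The fraction libraries and the whole cultures are separate libraries of the same 3 differentiations. P8 lies next to P7, which the rule used, so the choice of members may favor a fall from P8. Without P10 r1, the library with high neural progenitor markers, 33 members were lower and 10 higher at 1%. The calls over all genes also rose, to 518 lower and 489 higher of 21699 tested from 103 and 168 of 21750. Without the block no member was called in either direction (9 lower and 28 higher over all genes), nor without r2 or without r3 (0 and 0 over all genes).

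TOX3 read 27.2, 6.22 and 7.62 TPM at P8, 1.10 and 2.6 at P9, and 11.1, 0.87 and 0.88 at P10 (log2 fold change -2.36, SE 0.47, edgeR adjusted p = 0.0043), low in every late library but P10 r1. GALNT18 (-2.33), ACBD7, an acyl-CoA-binding protein gene (-2.24), FHDC1, a formin gene (-2.20), and LEMD1 (-2.02) also fell, with edgeR adjusted p from 0.0030 to 0.0070, although GALNT18 in r2 read 4.09 TPM at P8 and 5.01 at P10. HLA-DRB1, a class II antigen presentation gene present in hESCs at 13.9, 15.9 and 14.1 TPM, read 0.82 and 0.77 TPM at P9 and 7.90, 0.37 and 0.61 at P10 (log2 fold change -2.53, SE 0.51, edgeR adjusted p = 0.0042). Its reads can be shared with near-identical HLA genes, so the value is uncertain.

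The 3 members that rose were AK5, an adenylate kinase gene of neural tissue, LMO7, an actin and adherens junction adaptor gene, and PMAIP1, which encodes the pro-apoptotic protein NOXA. LMO7 read 6.04, 12.3 and 22.4 TPM at P8, 54.7 and 154.5 at P9, and 8.24, 59.4 and 227.6 at P10 (log2 fold change 3.01, SE 0.62, edgeR adjusted p = 0.0049), with P10 r1 again at the level of P8. AK5 went from 0.59, 1.85 and 5.33 TPM at P8 to 14.4 and 132.4 at P9 and 1.18, 27.3 and 121.6 at P10 (4.51, SE 1.04, edgeR adjusted p = 0.0095). PMAIP1 read 47.0, 20.3 and 30.5 TPM at P8, 224.9 and 81.4 at P9 and 53.7, 84.7 and 89.4 at P10 (1.87, SE 0.41, edgeR adjusted p = 0.0068), every late library lying above P8. In the same late libraries the sum of neural progenitor markers, mostly SOX2 and NES, fell. It went from between 256.8 and 535.5 TPM at P8 to between 59.9 and 96.2 at P9 and in P10 r2 and r3. The part of a change in cell types in these values was not tested.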

How the data were processed

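RNA was polyA-selected and sequenced single-end by the authors in 47 libraries. The authors deposited RSEM expected counts and TPM per gene for each library, replicates unpooled, and the submitters' processing notes name cutadapt 1.16, STAR 2.5.2b, RSEM 1.3.0 and GRCh38. The expected counts divide ambiguous reads between genes, so 9.33% of values were not whole, and the deposited TPM values are scaled by effective length and library. The strand setting of counting is not given in the sources used here, so members overlapping an antisense gene, FOXD3 and SORBS2 among them, may share its reads.

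Here gene types, symbols and positions came from GENCODE 29 (57447 of 58051 identifiers matched). Expected counts were rounded, and normalized counts are these divided by TMM factors over all libraries. Tests used edgeR 4.0.16 (glmQLFit, glmQLFTest, filterByExpr; limma 3.58.1, R 4.3.3) with the replicate number as a block. Time comparisons shared a fit of all 35 whole cultures, whereas each passage's fractions were fitted alone and together for the interaction. The series text ties a replicate number to 1 experiment, and deviations from group means of same-numbered P5 fractions correlated at 0.649 on average over 13297 genes (P8 fractions: 0.777, P3 and P4: 0.40, P8 and P10: 0.243, P3 and P8: 0.113, 36 h and P3: 0.006, so that the numbers show no pairing of the last). DESeq2 1.42.0, another normalization, other filters, another FDR and left-out libraries were alternatives.

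The members, lists and tests were chosen with earlier results of these data known. Named genes are the 10 highest scores, up to 5 members per direction and comparison with the largest fold change among those called and changed alike in every differentiation (at P5, where none was called at 1%, those at 5%), members called against the main direction, members on the lists, and genes at the limit of the rule; TMSB4X, LRAT, KCTD12, LGR4, IGFBP2, ETS1, NDRG2, RNF175 and the other members named by role or promoter were chosen after their values were seen. No pair of replicates was within sampling noise. P-values measure the spread between differentiations of 1 line, and counts cover counting error only.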

Additional observations from a re-analysis of the deposited data

How the results depend on the processing

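Membership was fairly stable: of the 134 members, 134 remained with symbol families left out before the top 150 were taken, 116 with normalized counts, 126 and 105 with pseudocounts of 0.1 and 5, 110 without P1 r1 and between 101 and 113 with a differentiation left out. The calls moved more, and those over all genes, given in brackets, moved with them. At P5, epithelial and mesenchymal calls numbered 40 and 15 with DESeq2 (445 and 495), 39 and 15 without a count filter (431 and 507 of 31905 genes), 6 and 2 with at least 10 counts in every library (42 and 76 of 15982) and 38 and 15 at an FDR under 5% (425 and 525). With a differentiation left out, the P5 calls ranged from 0 to 14 (0 to 111) and from 0 to 9 (0 to 201). At P8, mesenchymal calls numbered 4 with DESeq2 (190) and 1 without a count filter (20). From 36 h to P3, lower calls numbered 12 with no replicate block (770) and 32 at an FDR under 5% (1154). With a differentiation left out, these lower calls ranged from 0 to 18 (217 to 915) and higher calls from 0 to 8 (140 to 858). From P3 to P8, higher calls numbered 47 with DESeq2 (542), 48 at an FDR under 5% (569), 15 with no replicate block (181) and 0 to 31 with a differentiation left out (1 to 577). For P9 and P10 against P8, higher and lower calls numbered 0 and 0 with no replicate block (28 and 9), 9 and 22 with DESeq2 (474 and 266), 9 and 24 at an FDR under 5% (480 and 306), 10 and 33 without P10 r1 (489 and 518) and 0 and 0 for P10 alone (19 and 0). They ranged from 0 to 7 (0 to 438) and from 0 to 24 (0 to 490) with a differentiation left out. The cause was not tested, though fewer libraries also leave fewer degrees of freedom. A fit without P1 r1 gave 5 higher and 27 lower members from 36 h to P3 (681 and 965). A fit without P6 r3 gave 17 higher from P3 to P8 (231). Both fits were chosen after seeing the data. No fold change turned its sign in any of 1729 values under an alternative, but only the 173 gene results called at an FDR under 5% were followed. That choice favors a stable sign, and named fold changes outside it were not covered. With 3 differentiations, single genes near the count limits are the least certain.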
